A study of Mus musculus with 6 samples.

Results

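The transcription factor gene Atf4, 8 genes of serine, one-carbon and asparagine enzymes and the stress gene Ddit4 were examined in hematopoietic stem cells (HSCs) sorted from mouse bone marrow (BM). The 10 genes were taken by symbol, as a list, from the 21878 rows of the expression table: Atf4, Asns, Phgdh, Psat1, Psph, Shmt1, Shmt2, Mthfd1l, Mthfd2 and Ddit4. Each symbol had its own row in all 6 libraries. The cells were gated as CD34-Flk2-Lineage-Sca1+c-Kit+ and came from WT mice, in 3 libraries labelled control and 3 labelled IGF-1 (insulin-like growth factor 1). In the study's methods, IGF1 is recombinant mouse protein given under the skin. Its text and legends add that HSCs were analysed on the day after a single dose and that controls received vehicle. Age and strain of these mice are not stated in the labels, nor whether each library is a single mouse or a pool. P-values therefore measure only the spread between these libraries. The extraction text of the labels speaks of irradiated mice in place of IGF1-treated ones, and the treatment label was followed here.

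ATF4 is translated more strongly when the initiation factor eIF2 is phosphorylated during amino acid shortage, endoplasmic reticulum stress or other stress, and mTORC1, a kinase complex downstream of IGF1 and insulin, also raises it. It binds DNA as a dimer, often with a C/EBP protein, at a composite element. Its known targets include the enzymes that make serine from a glycolytic intermediate (PHGDH, PSAT1 and PSPH in that order) and SHMT2, which passes the carbon of serine to folate in mitochondria, as SHMT1 does in the cytosol. MTHFD2 and MTHFD1L carry that carbon through the mitochondrial folate pathway to formate, which serves purine and thymidylate synthesis. ASNS makes asparagine from aspartate, and DDIT4 (also REDD1) is a stress-induced brake on mTORC1. In HSCs, which are mostly quiescent, protein synthesis is known to be kept low.

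The sequence before the start of 4 of these genes is shown because it is where such an element would be read: Atf4 itself, Asns as the best known ATF4 target, and Psat1 and Mthfd1l as the 2 genes that passed the test below. Each run is the 250 bases before the RefSeq transcript start in build GRCm38.p6, printed 5′ to 3′ on the strand of the gene, and capitals mark a match to TGATGNAA, the ATF4 and C/EBP composite element. The windows are chr15:80254934-80255183 (+ strand) for Atf4, chr6:7693210-7693459 (- strand) for Asns, chr19:15925060-15925309 (- strand) for Psat1 and chr10:3972825-3973074 (+ strand) for Mthfd1l, whose annotated gene already begins at 3972892, inside the window.
Atf4: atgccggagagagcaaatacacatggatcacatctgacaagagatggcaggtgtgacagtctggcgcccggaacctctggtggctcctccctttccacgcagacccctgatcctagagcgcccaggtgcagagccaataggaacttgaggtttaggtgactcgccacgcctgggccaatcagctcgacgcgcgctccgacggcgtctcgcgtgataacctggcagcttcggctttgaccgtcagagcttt
Asns: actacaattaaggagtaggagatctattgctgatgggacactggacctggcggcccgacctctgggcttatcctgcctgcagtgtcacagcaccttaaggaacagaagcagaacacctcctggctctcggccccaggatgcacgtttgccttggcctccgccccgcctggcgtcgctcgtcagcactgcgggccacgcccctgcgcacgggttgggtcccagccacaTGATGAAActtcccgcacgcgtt
Psat1: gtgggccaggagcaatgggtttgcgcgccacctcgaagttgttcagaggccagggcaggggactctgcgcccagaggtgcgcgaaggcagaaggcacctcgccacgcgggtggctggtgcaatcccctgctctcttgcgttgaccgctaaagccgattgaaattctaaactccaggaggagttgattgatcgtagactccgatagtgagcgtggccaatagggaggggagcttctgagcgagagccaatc
Mthfd1l: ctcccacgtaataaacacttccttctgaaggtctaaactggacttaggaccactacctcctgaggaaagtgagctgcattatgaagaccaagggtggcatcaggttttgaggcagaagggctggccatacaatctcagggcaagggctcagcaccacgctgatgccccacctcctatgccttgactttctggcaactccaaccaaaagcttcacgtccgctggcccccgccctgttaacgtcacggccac
Among these 4 windows, the capitals occur once, in Asns, where TGATGAAA lies 23 to 16 bases before the start. The 10 genes matched 11 RefSeq promoters (250 bases before to 50 after the start), and 1 of the 11 held TGATGNAA on either strand, against 3.97% of all 32851 promoters. The E-box CACGTG was present in 0 of the 11 and in 7.15% of all promoters. A match is a description of the letters, and no binding was measured here.

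The 3 control libraries were not alike, and this touches each value below. Values are FPKM (fragments on a gene per kilobase of its length, scaled to the depth of the library), so levels can be compared between genes. Over the genes expressed, control replicates 1 and 3 differed by a mean chi-squared per gene of 1.517, a little above counting noise, and the IGF1 libraries from each other by 1.688 to 1.894. Control replicate 2 differed from the other controls by 229 to 231 and from the IGF1 libraries by 24.6 to 28.0. Taking the mean of the IGF1 libraries as 0% and that of control replicates 1 and 3 as 100%, control replicate 2 lay at a median of 19.9% over the 3438 genes called without it. Its label was kept, and the values of the 10 genes and the counts of each list are given with and without it. The reads recovered from the steps of the values numbered 15879605 in control replicate 1, 11429198 in control replicate 2, 15973834 in control replicate 3 and between 11206800 and 12756225 in each IGF1 library. The 10 genes held between 47 reads (Ddit4 in control replicate 2) and 14405 reads (Phgdh in control replicate 3).

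The sorted population was checked against its markers. Of 13 HSC marker genes tested, 0 were called by limma (6 at an unadjusted p under 0.05, all lower, and 1 by voom on recovered reads), and Slamf1 (0.736 to 2.41 FPKM), Mecom (0.672 to 4.10 FPKM) and Procr (11.5 to 18.7 FPKM) were present at low levels. Cd34 (230 to 640 FPKM) and Flt3 (117 to 188 FPKM), which encode the surface proteins that the gate excludes, and the myeloid gene Mpo (1613 to 1705 FPKM) were abundant in every library, so the RNA did not clearly bear out the gate, and the cells are called HSCs here as labelled. The summed level of 15 neutrophil and monocyte genes was 3671 to 3726 FPKM in control replicates 1 and 3, 6192 FPKM in control replicate 2 and 6178 to 6213 FPKM in the IGF1 libraries, with 4 of 13 tested genes called lower. The 9 B cell genes summed to 121 to 122, 498 and 474 to 493 FPKM in the same order, with 0 of 7 called (4 at an unadjusted p under 0.05, 0 by voom). In the same order again, the sums were 42.3 to 45.7, 114 and 57.4 to 63.2 FPKM for erythroid genes (0 of 7 called, at an unadjusted p or by voom too) and 55.6 to 56.0, 80.0 and 104 to 113 FPKM for megakaryocyte genes (2 of 6 called higher). They were 360 to 372, 782 and 777 to 795 FPKM for T and NK cell genes (1 of 3 called higher), and 16.2 to 17.0, 8.82 and 7.96 to 8.84 FPKM for stromal and endothelial genes (0 of 1 called by limma or voom, 1 at an unadjusted p). The 6 further genes of the gate or of later progenitors had 0 of 6 called (4 at an unadjusted p, 0 by voom) and summed to 1186 to 1194, 786 and 694 to 711 FPKM. With control replicate 2 left out, the calls were 5 lower of 13 for HSC genes, 4 higher and 6 lower of 13 for neutrophil and monocyte genes, and 5 higher of 7 for B cell genes. They were 4 higher of 6 for megakaryocyte genes, 2 higher of 3 for T and NK cell genes and 1 higher and 2 lower of 6 for the gate and progenitor genes, with no erythroid or stromal gene called. Of all genes tested, 4.63% were called lower and 1.98% higher over 6 libraries, and 20.6% and 12.3% without control replicate 2. No listed marker was at 0 in all 6 libraries. In every library, 7 of the 8 stromal and endothelial genes and 3 of the 8 T and NK cell genes were under 1 FPKM. The part of these shifts in the values below was not tested, and in a sorted bulk sample fewer cells of a type and less RNA per cell cannot be told apart.

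Comparing IGF1- with vehicle-treated mice, the mean Atf4 mRNA level of the HSCs was higher and that of each serine, folate and asparagine enzyme lower. Atf4 was 1.70-fold higher in the mean of the IGF1 libraries, while the 8 enzyme genes were between 1.31-fold (Psph) and 4.09-fold (Asns) lower. By limma, 2 of the 10 genes passed both thresholds (adjusted p under 0.05 after Benjamini-Hochberg correction, and more than a 2-fold change), and both were lower: Psat1 and Mthfd1l. Over all 10449 genes tested, 4.63% were called lower and 1.98% higher. With any library other than control replicate 2 left out, 0 of the 10 and 0 of all genes were called, and 5 to 6 of the 10 passed an unadjusted p under 0.05. The groups did not overlap in 8 of the 10 genes, 7 lower and 1 higher, where 59.4% of all genes did not overlap and 37.4% were lower without overlap. Without control replicate 2, 5 genes passed as lower (Asns, Psat1, Shmt1, Mthfd1l and Mthfd2) and 1 as higher (Atf4). In that comparison 20.6% of all genes were called lower and 12.3% higher, and 88.5% of all genes passed the adjusted p alone, as did 9 of the 10. The median log2 fold change of the 10 genes was -0.72, against -0.18 for all genes, and without control replicate 2 it was -0.95 against -0.24. The 10 genes were chosen with earlier results of these data known, so these counts are descriptions of the genes and not independent evidence.

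**Figure D1:**
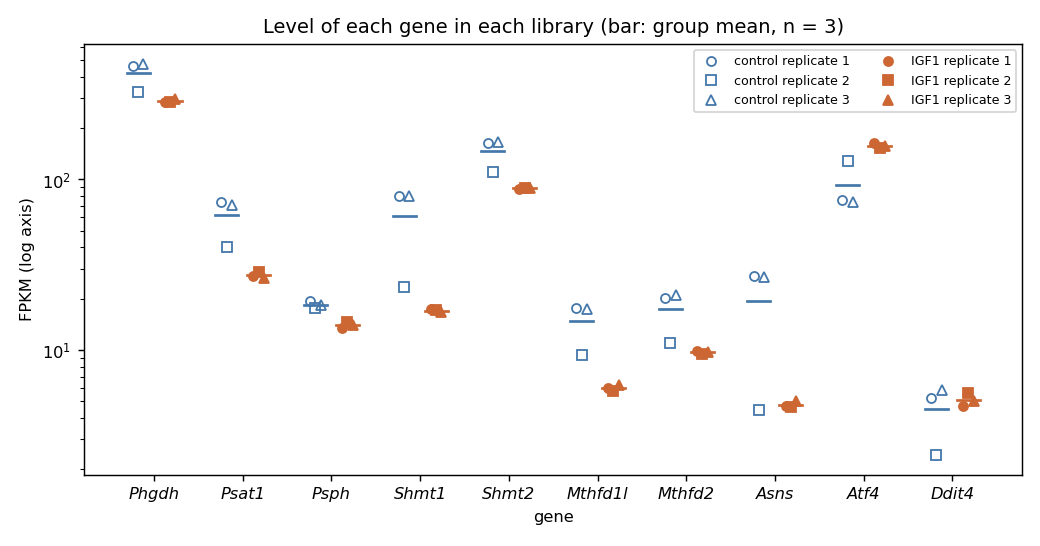
FPKM (log axis) of the 10 genes in each library, with open blue symbols for controls, filled orange symbols for IGF1, a different shape for each replicate number and a bar for the mean of 3 libraries. The square of control replicate 2 lies near the IGF1 symbols in Shmt1 (23.5 against 16.7 to 17.4 FPKM) and among or below them in Asns and Ddit4, whereas in Psph it lies with the other controls.

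Levels per length spread over about the full range of the list. In the controls the order was Phgdh (422 ± 83.7 FPKM, SD, n = 3), Shmt2 (147 ± 31.1), Atf4 (93.0 ± 31.6), Psat1 (61.6 ± 18.5), Shmt1 (61.2 ± 32.7), Asns (19.5 ± 13.1), Psph (18.4 ± 0.803), Mthfd2 (17.5 ± 5.57), Mthfd1l (14.8 ± 4.72) and Ddit4 (4.50 ± 1.83). The ranges of neighbours in this order overlapped throughout from Shmt2 to Mthfd1l, while Phgdh and Ddit4 did not overlap their neighbours. The overlaps of Shmt2 with Atf4 and of Shmt1 with Asns came only from control replicate 2. The lowest Asns value (4.45 FPKM, control replicate 2) also lay within the control range of Ddit4 (2.42 to 5.85 FPKM). In the IGF1 libraries the order was Phgdh (289 ± 7.48 FPKM, SD, n = 3), Atf4 (158 ± 5.04), Shmt2 (88.8 ± 1.13), Psat1 (27.5 ± 1.14), Shmt1 (17.0 ± 0.372), Psph (14 ± 0.596), Mthfd2 (9.70 ± 0.200), Mthfd1l (6.0 ± 0.243), Ddit4 (5.11 ± 0.464) and Asns (4.78 ± 0.201). Among neighbours in this second order, only Ddit4 and Asns overlapped. Phgdh was above 97.1% of all tested genes in mean level, and Ddit4 above 28.7%.

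Atf4 (chromosome 15, 80255184 to 80257545 in GRCm38.p6) encodes the transcription factor itself, whose amount is known to be set largely by translation, so its mRNA is only part of its activity. It had 75.8, 129 and 73.7 FPKM in the control libraries (replicates 1, 2 and 3, an order kept throughout) against 163, 153 and 157 FPKM in the IGF1 libraries. All IGF1 libraries were above all controls, and control replicate 2 was nearest to them. The log2 fold change was 0.81 (standard error 0.23, 95% confidence interval 0.24 to 1.38, adjusted p = 0.0536 by limma), which missed the threshold. Without control replicate 2 it was 1.07 (adjusted p = 1.4e-09), past both thresholds. The exact permutation test gave p = 0.1 for Atf4 and for each of the other 7 genes without overlap (2-sided), the smallest value 3 libraries against 3 allow.

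The 3 enzymes of serine synthesis were all lower in the IGF1 libraries as deposited, by unequal amounts. Phgdh (chromosome 3, 98313171 to 98339969), the first enzyme, had 463, 326 and 478 FPKM in the control libraries against 284, 286 and 298 FPKM in the IGF1 libraries. Its log2 fold change was -0.53 (standard error 0.18, adjusted p = 0.0708 by limma), and -0.70 without control replicate 2 (adjusted p = 7.4e-09), short of the fold threshold in both. Psat1 (chromosome 19, 15905123 to 15925059), the aminotransferase of the second step, passed the test on this scale. With length and GC trends removed or quantile normalization, Phgdh was further from 0 (-0.75 and -1.18) than Psat1 (-0.67 and -0.92). It had 74.0, 40.3 and 70.5 FPKM in the control libraries against 27.0, 28.8 and 26.6 FPKM in the IGF1 libraries. Its log2 fold change was -1.09 (standard error 0.24, adjusted p = 0.0412 by limma), past both thresholds, and -1.36 without control replicate 2 (adjusted p = 1.5e-09). Psph (chromosome 5, 129765558 to 129787443), the phosphatase of the last step, differed from the others in the placing of control replicate 2, which lay at 77.7% of the way from the IGF1 mean to the other controls. Its levels were 19.3, 17.6 and 18.4 FPKM in the control libraries against 13.5, 14.7 and 14 FPKM in the IGF1 libraries. The log2 fold change of Psph was -0.37 (standard error 0.10, adjusted p = 0.049 by limma), under the fold threshold. Its direction depended on the processing, since it was 0.04 once trends on gene length and GC content were removed.

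Cytosolic and mitochondrial serine hydroxymethyltransferases had unequal fold changes. Neither was called over 6 libraries, and the difference between them was not tested. Shmt1 (chromosome 11, 60788897 to 60811265), the cytosolic enzyme, had 79.9, 23.5 and 80.1 FPKM in the control libraries against 17.4, 17.1 and 16.7 FPKM in the IGF1 libraries. The groups did not overlap, although control replicate 2 lay 20.3% of the way from the IGF1 mean to the other controls. The log2 fold change was -1.59 (standard error 0.48, adjusted p = 0.056 by limma), and without control replicate 2 it was -2.17 (adjusted p = 3.1e-11), past both thresholds. Shmt2 (chromosome 10, 127517123 to 127522444), the mitochondrial enzyme, had 164, 111 and 166 FPKM in the control libraries against 87.5, 89.7 and 89.2 FPKM in the IGF1 libraries. Its log2 fold change was -0.70 (standard error 0.18, adjusted p = 0.0466 by limma) and -0.89 without control replicate 2 (adjusted p = 1.5e-09), both under the fold threshold. The ratio of Shmt2 to Shmt1 within a library was 2.05, 4.75 and 2.08 in the controls and 5.03, 5.25 and 5.36 in the IGF1 libraries. A ratio within a library does not change when all its values are scaled by the same factor. Here the ratio put control replicate 2 beside the IGF1 libraries. It still carries trends on length and GC content. With those removed, Shmt1 was at -1.17 and Shmt2 at -0.78, and with quantile normalization they were at -1.43 and -0.79.

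The mitochondrial folate enzymes Mthfd1l and Mthfd2 had lower mean levels as well, and over 6 libraries only Mthfd1l passed both thresholds. Mthfd1l (chromosome 10, 3972892 to 4167081), which releases formate in mitochondria, had 17.7, 9.33 and 17.3 FPKM in the control libraries against 6.0, 5.75 and 6.24 FPKM in the IGF1 libraries. Its log2 fold change was -1.12 (standard error 0.25, adjusted p = 0.0413 by limma), past both thresholds, and -1.40 without control replicate 2 (adjusted p = 6.3e-09). Mthfd2 (chromosome 6, 83305704 to 83326011), the bifunctional enzyme of the steps before it, had 20.3, 11.0 and 21.0 FPKM in the control libraries against 9.88, 9.49 and 9.72 FPKM in the IGF1 libraries. In Mthfd2, control replicate 2 lay just above the IGF1 libraries. The log2 fold change of Mthfd2 was -0.74 (standard error 0.25, adjusted p = 0.0675 by limma), and -1.02 without control replicate 2 (adjusted p = 2.6e-08), which passed both thresholds.

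Asns (chromosome 6, 7675165 to 7693209) differed most between libraries. It had 27.2, 4.45 and 26.9 FPKM in the control libraries against 4.67, 4.65 and 5.01 FPKM in the IGF1 libraries, or 984, 116 and 982 reads against 131, 119 and 146. Control replicate 2 was below all IGF1 libraries, so the groups overlapped. The log2 fold change was -1.49 (standard error 0.65, 95% confidence interval -3.09 to 0.10, adjusted p = 0.108 by limma), and the exact permutation test gave p = 0.4. Without control replicate 2 it was -2.28 (adjusted p = 2.0e-10), a 5.66-fold lower mean FPKM than in control replicates 1 and 3. Ddit4 (chromosome 10, 59949675 to 59951770) had 5.22, 2.42 and 5.85 FPKM in the control libraries against 4.69, 5.61 and 5.02 FPKM in the IGF1 libraries. Its groups overlapped, with control replicate 2 the lowest of all 6 libraries. The log2 fold change of Ddit4 was 0.21 (standard error 0.28, 95% confidence interval -0.47 to 0.90, adjusted p = 0.537 by limma), with p = 0.9 in the exact permutation test, and without control replicate 2 it was -0.10 (adjusted p = 0.27). The direction of Ddit4 is therefore not fixed by these libraries.

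**Figure D2:**
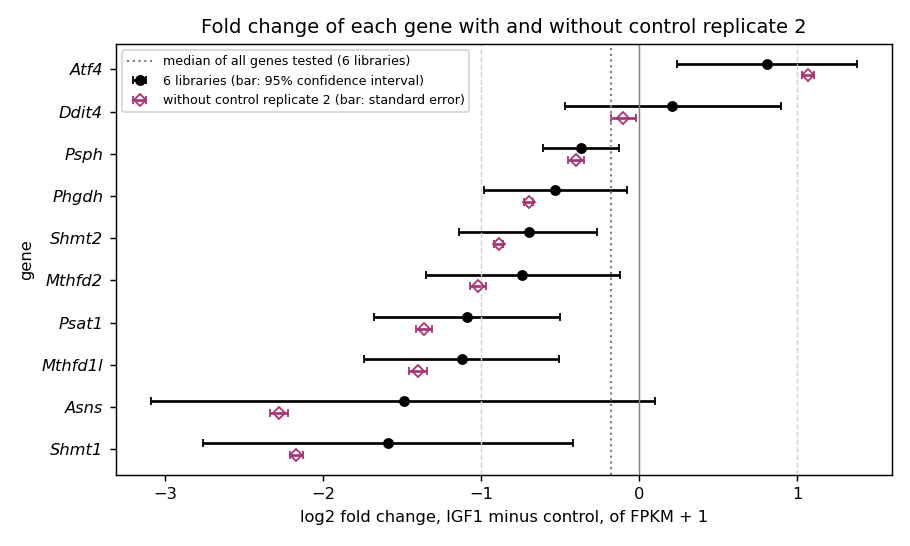
Log2 fold change (IGF1 minus control, of FPKM + 1) of each gene over 6 libraries (black circles, bars are 95% confidence intervals) and without control replicate 2 (open diamonds, bars are standard errors), with dashed lines at a 2-fold change and a dotted line at the median of all genes (-0.18). The intervals of Asns and Ddit4 over 6 libraries include 0, and without control replicate 2 Asns (-2.28) and Shmt1 (-2.17) lie furthest from 0.

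The values depended on how the libraries were scaled. Scaling to the 75th percentile shifted the median of all genes by 0.30, to 0.12, and turned the split of called genes from 207 higher and 484 lower to 349 higher and 188 lower. On that scale Atf4 was at 1.15, Asns at -1.17 and Shmt1 at -1.25. There Phgdh (-0.18), Psph (-0.04), Shmt2 (-0.35) and Mthfd2 (-0.41) were closer to 0. Psat1 (-0.75) and Mthfd1l (-0.81) lost their calls on it. They lost them too with median ratio scaling (-0.91 and -0.96) and with quantile normalization. Quantile normalization put Phgdh (-1.18) and Shmt2 (-0.79) further from 0 than in the reported fit. The other enzymes were closer to 0: Asns (-1.22), Psat1 (-0.92), Psph (-0.03), Shmt1 (-1.43), Mthfd1l (-0.84) and Mthfd2 (-0.41). Atf4 was at 0.82 and Ddit4 at 0.45. Fold changes over all genes also moved with transcript length and GC content, from a median of 0.378 in the shortest of 5 equal groups to -0.417 in the middle group, and from -0.525 in the lowest GC group to 0.249 in the highest. With those trends removed, Psat1 was at -0.67 and Mthfd1l at -0.81, so neither passed the fold threshold, while Atf4 was at 0.70, Asns at -1.25 and Shmt1 at -1.17. In each of the 22 alternatives run on single genes, Atf4 was higher and Asns, Phgdh, Psat1, Shmt1, Shmt2, Mthfd1l and Mthfd2 were lower. Of the 22, 5 reversed Psph and 5 reversed Ddit4. Many of these outcomes were fixed in advance. Changing the filter, variance trend or replicate block left each fold change as it was. For genes without overlap, other pseudocounts or leaving out 1 library could not reverse the direction.

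**Figure D3:**
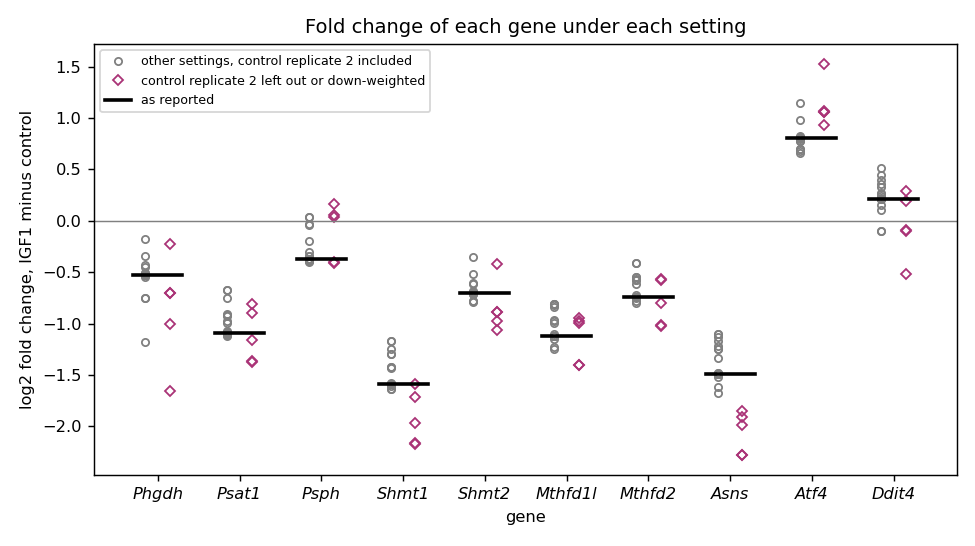
Log2 fold change (IGF1 minus control) of each gene under every setting run, with the reported value as a black bar, settings that kept control replicate 2 as grey circles and settings that left it out or gave it little weight as diamonds. Atf4 stays between 0.66 and 1.53 and Asns between -2.28 and -1.10, while the points of Psph (-0.41 to 0.16) and Ddit4 (-0.52 to 0.51) fall on both sides of 0.

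Other core folate enzymes were examined next. Mthfd1, the cytosolic trifunctional enzyme, had 77.3, 18.4 and 77.8 FPKM in the control libraries against 16.5, 16.8 and 17.9 FPKM in the IGF1 libraries, with a log2 fold change of -1.45 (adjusted p = 0.0831 by limma) and -2.12 without control replicate 2 (adjusted p = 8.2e-11). Mthfd1 was thus placed like Shmt1, its cytosolic partner, with control replicate 2 just above the IGF1 libraries. Mthfd2l, the paralogue of Mthfd2 in adult tissues, had 6.41, 5.03 and 6.74 FPKM against 2.67, 3.26 and 1.97 FPKM (log2 fold change -0.97, adjusted p = 0.0363), under the fold threshold. Tyms, thymidylate synthase, had 34.3, 48.3 and 33.6 FPKM against 41.1, 42.1 and 40.8 FPKM (log2 fold change 0.11, adjusted p = 0.568). Tyms did not pass, and its groups overlapped. Aldh1l2, the mitochondrial formyltetrahydrofolate dehydrogenase, was listed at 0 in 4 libraries and at 0.0931 FPKM or less in the others, too low to be tested. Of 17 tested genes of the folate cycle and its carriers, 1 was called, as lower, and 16 did not pass. This share is near the 4.63% of all genes called lower. The list median was -0.26 (-0.18 for all genes), and -0.01 with length and GC trends removed (-0.04 for all genes). The called gene was Slc19a1, the reduced folate carrier (-1.08, adjusted p = 0.0425), which was at -0.89 and not called with length and GC trends removed. When control replicate 2 was left out, 4 of the 17 were called, all lower, a share near the 20.6% of all genes called lower in that comparison.

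**Figure D4:**
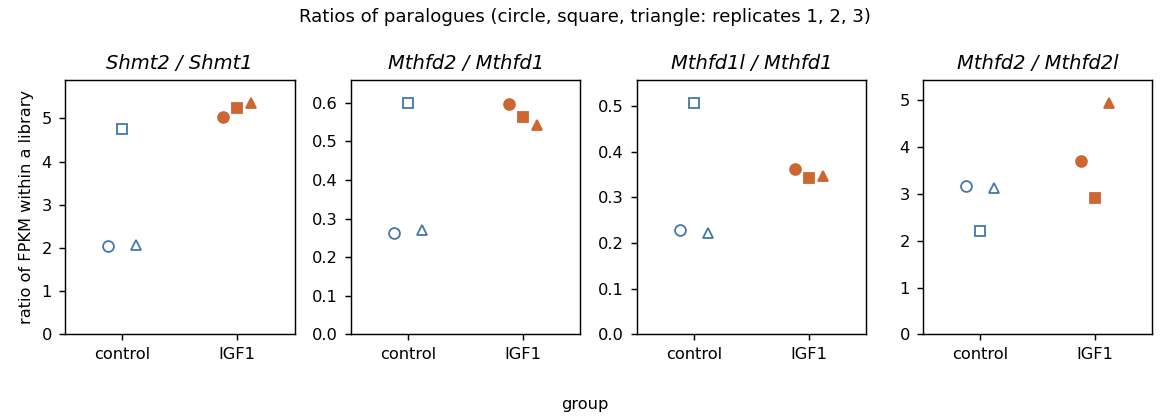
Ratio of the FPKM of 2 enzymes within each library, by group, for Shmt2 to Shmt1, Mthfd2 to Mthfd1, Mthfd1l to Mthfd1 and Mthfd2 to Mthfd2l, with circles, squares and triangles for replicates 1, 2 and 3. The ratio of Mthfd2 to Mthfd1 was 0.263, 0.600 and 0.270 in the controls and 0.542 to 0.598 in the IGF1 libraries, whereas that of Mthfd2 to Mthfd2l overlapped between the groups.

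Ratios of the mitochondrial enzymes to Mthfd1 placed control replicate 2 differently. For Mthfd2 to Mthfd1 it was at 0.6, beside the IGF1 libraries (0.542 to 0.598), and for Mthfd1l to Mthfd1 it lay outside both groups. The ratio of Mthfd1l to Mthfd1 was 0.229, 0.507 and 0.222 in the controls and 0.363, 0.342 and 0.348 in the IGF1 libraries, and control replicate 2 had the highest ratio of the 6. The ratio of Mthfd2 to its paralogue Mthfd2l was 3.17, 2.20 and 3.12 in the controls and 3.70, 2.91 and 4.94 in the IGF1 libraries. Without control replicate 2, the Shmt2 to Shmt1, Mthfd2 to Mthfd1 and Mthfd1l to Mthfd1 ratios were all higher in the IGF1 libraries than in the remaining controls. These ratios were not tested.

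Other ATF4 partners and targets did not share 1 direction. Cebpb, a C/EBP protein that can pair with ATF4, had 54.6, 58.2 and 47.7 FPKM in the control libraries against 144, 143 and 134 FPKM in the IGF1 libraries. Its log2 fold change was 1.38 (standard error 0.11, adjusted p = 0.0286 by limma), it passed both thresholds, and control replicate 2 lay with the other controls. With length and GC trends removed Cebpb was at 0.58 (adjusted p = 0.0519) and no longer passed. Ddit3 (CHOP), a stress-induced C/EBP family gene, had 6.71, 11.6 and 7.04 FPKM against 14, 13.7 and 14.5 FPKM (0.71, adjusted p = 0.0555). Ddit3 shared the placing of libraries seen in Atf4. Cebpg had a log2 fold change of 0.01 (adjusted p = 0.959) and Atf3 of 0.17 (adjusted p = 0.392), and neither passed. Trib3, an ATF4 and CHOP target, had 5.02, 3.42 and 5.32 FPKM against 2.28, 2.76 and 2.91 FPKM (-0.60, adjusted p = 0.054). Chac1, a glutathione-degrading target, was listed at 0 in the 3 IGF1 libraries and at 0.318, 0.331 and 0.909 FPKM in the controls, too low to be tested. Sesn2, a target that restrains mTORC1, had 4.77, 2.18 and 4.81 FPKM against 1.24, 1.26 and 1.2 FPKM and was called lower (-1.09, adjusted p = 0.0429). Ddit4l, the paralogue of Ddit4, stayed at or below 0.292 FPKM and was not tested.

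The counts over 6 libraries in the next lists stand beside 4.63% of all genes called lower and 1.98% higher. Of 39 tested genes of the ATF4 target list, 5 were called lower, 2 higher and 32 did not pass. Its median log2 fold change was -0.69, against -0.18 for all genes. This list holds 8 of the 10 genes, and its other 31 genes had a median of -0.60, with 3 lower (Sesn2, Slc7a5 and Gars) and 2 higher (Cebpb and Gdf15). Gdf15, a stress-induced secreted factor, rose (1.34, adjusted p = 0.0336), Slc7a5, which encodes a large neutral amino acid transporter, was lower (-1.56, adjusted p = 0.0483), and Gars, glycyl-tRNA synthetase, was lower (-1.29, adjusted p = 0.0441). Slc7a5 and Gars, and Mtap and Ppat below, were named after their values were seen. Of the 39, 15 were called lower and 3 higher without control replicate 2, where 20.6% of all genes were called lower and 12.3% higher. Gdf15 was at 0.78 with length and GC trends removed and was no longer called. Upstream of ATF4, of 18 genes of eIF2, its kinases, eIF2B and phosphatases, 1 was called, Eif2s1 (the alpha subunit of eIF2) at -1.36 (adjusted p = 0.0369), and the list median was -0.18, equal to that of all genes. Leaving out control replicate 2 put 7 of the 18 as lower and 1 as higher, to be read against the 20.6% and 12.3% of all genes. Of 22 ATF4 dimer partners and regulators, 1 was called higher (Cebpb) and 1 lower (Atf2, -1.20, adjusted p = 0.0394), with a median of -0.27, and without control replicate 2 these counts were 2 and 5. Eif2s1 (-0.65) and Atf2 (-0.58) lost their calls with length and GC trends removed.

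The pathways that use serine and one-carbon units are given with the 4.63% of all genes called lower as background. In purine and thymidylate synthesis 4 of 17 genes were called, all lower (median -0.72). They were Prps1 (-1.89, adjusted p = 0.0358) and Prps2 (-1.51), which make the ribose phosphate donor, Gmps (-1.24), which makes GMP, and Ppat (-2.0), which encodes the committing enzyme of purine synthesis. In the methionine cycle and transsulfuration list 4 of 13 were called, all lower (median -0.65), namely Amd1 (-1.61), Mtap (-1.24), Mat2b (-1.02) and Enoph1 (-1.01). Mat2b is a subunit of the enzyme that makes S-adenosylmethionine, and Amd1, Mtap and Enoph1 act in polyamine synthesis and methionine salvage. In serine and glycine transport and use 1 of 18 was called, Serinc3 (-1.32, adjusted p = 0.0481), and in glutamine, asparagine and aspartate enzymes 1 of 15, Oat, ornithine aminotransferase (-1.36, adjusted p = 0.0436). The medians of these lists were -0.58 and -0.15. Of 3 tested genes of the glycine cleavage system 0 were called by limma or by voom, 2 were lower at an unadjusted p under 0.05, and 1 was called lower without control replicate 2. Called without control replicate 2, against 20.6% of all genes lower and 12.3% higher, were 8 lower and 1 higher in the purine list (Dctpp1 at 1.30, named after its value was seen) and 6 lower in the methionine list. In the same comparison 5 were lower in the serine and glycine list and 6 in the glutamine, asparagine and aspartate list. With length and GC trends removed, Prps2 (-0.84), Gmps (-0.99), Amd1 (-0.90), Mtap (-0.68), Mat2b (-0.54) and Serinc3 (-0.66) lost their calls. Among 12 genes related to Ddit4 as brakes on mTORC1, Sesn1 (-1.10, adjusted p = 0.0481) and Sesn2 were called lower, as were 2 without control replicate 2, and the list median was 0.02. Sesn1 was at -0.71 and not called with length and GC trends removed. With length and GC trends removed, the medians were -0.61 for the ATF4 targets, -0.53 for the methionine list and -0.28 for the purine list, against -0.04 for all genes.

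**Figure D5:**
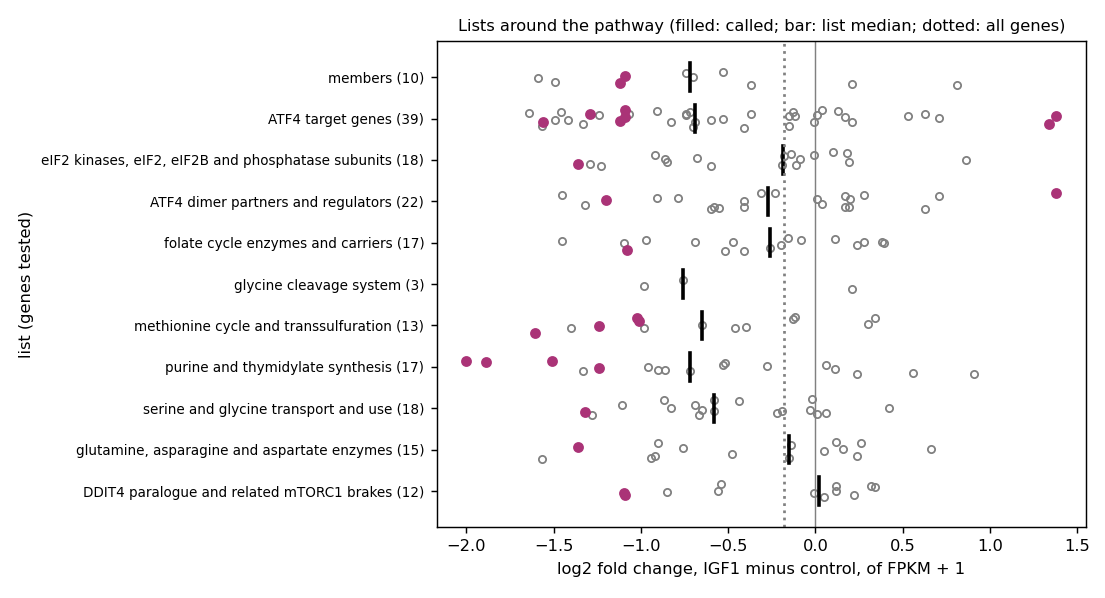
Log2 fold change (IGF1 minus control, of FPKM + 1) of each tested gene of the 10 genes and of 10 related lists, with filled points for called genes, a black bar for each list median and a dotted line at the median of all genes (-0.18). Called genes lie below 0 in each list that has any, apart from Cebpb (1.38) and Gdf15 (1.34).

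The genes whose profile over the 6 libraries was most like that of 4 of the genes were sought among the 10449 tested, by root mean square distance between centred log2(FPKM + 1) values. For Atf4 they were Commd4 (0.019), Bod1l (0.025) and Fam195b (0.031). For Mthfd2 they were Mgme1 (0.022), Gtf2h1 (0.023) and Ctnna1 (0.024). Asns had more distant neighbours, among them Acsl3 (0.068) and Rab5a (0.095), as did Ddit4, with Hes1 (0.070), Sugp2 (0.081) and Fzd9 (0.091). Among the 10 genes themselves, Psat1 and Mthfd1l (0.065) and Phgdh and Shmt2 (0.091) were closest, and Atf4 and Asns (1.557) were farthest apart. All these points share the same 6 libraries, and the same placing of control replicate 2 is part of each distance.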

How the data were processed

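HSC libraries were grouped by the treatment label. The submitters' processing notes name fastp, HISAT2, StringTie and the build GRCm38 (mm10), whereas the methods of the study name fastp, RSEM and DESeq2, and which tools made these values is not given in the sources used here. For each library, the authors deposited a table of gene symbols with 1 value each, taken as FPKM from the step sizes of the values; whether counting used strand is not given. No row was a pseudogene of the 10 genes, so reads shared with such copies could not be separated. Whole reads were recovered for 98.6% of 500 drawn rows (0% after jitter, tolerance 0.005 reads), and their total depth is approximate.

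The test was limma 3.58.1 (lmFit, eBayes with a trend, in R 4.3.3) on log2(FPKM + 1), for genes reaching 1 FPKM in 3 or more libraries. Calls needed more than a 2-fold change and, after Benjamini-Hochberg correction over all genes tested, an adjusted p under 0.05. This scale understates changes of low genes. The script was tested on simulated data whose noise followed the spread of the IGF1 libraries, without an outlying control. That test does not show how calls behave with control replicate 2. The 10 genes, the 10 related lists and 8 marker lists were chosen with earlier results of these data known. Genes named besides the 10 were the other core folate enzymes, 8 ATF4 partners or targets, up to 3 called genes of smallest adjusted p per list, and the 3 nearest profiles of 4 genes. Of these, 3 genes are not reported here. Length and GC content came from GENCODE transcripts (99.1% of tested genes), and loci and promoters from RefSeq (GRCm38.p6). Replicate numbers were not treated as pairs. Control replicate 2 dominated the deviations of the controls, so correlating same-numbered libraries could not decide pairing. Alternatives were other scalings, pseudocounts, filters, library weights, a replicate block, removal of length and GC trends, and leaving out each library. Voom on recovered reads and 3 combinations without control replicate 2 were added after seeing the data.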

Additional observations from a re-analysis of the deposited data

How the results depend on the processing

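Of 23 alternatives (4 chosen after seeing the data), those that change the counts by over 1.5 times are given here. The counts of all genes called higher and lower, 207 and 484, were 349 and 188 with 75th percentile scaling, 313 and 272 with quantile normalization, 66 and 157 with a pseudocount of 5, and 109 and 265 with no filter. They were 1276 and 2159 with library weights, which nearly removed control replicate 2 (weight 0.0137), and 654 and 1476 with no fold threshold. Median ratio scaling left 278 lower, removal of length and GC trends 153 lower, and voom on recovered reads 382 higher. With control replicate 2 left out, the counts were 1179 and 961 with length and GC trends removed, 2164 and 970 with 75th percentile scaling, and 1546 and 1402 with quantile normalization. Leaving out 1 library gave 0 to 1281 higher and 0 to 2157 lower. The higher end of each is without control replicate 2. Without any other library 0 genes were called by limma, while 233 to 386 higher and 450 to 795 lower genes exceeded a 2-fold change at an unadjusted p under 0.05. The cause was not tested.

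Of the 10 genes, 2 were called lower, and the count was 0 with 75th percentile, median ratio and quantile scaling, a pseudocount of 5, and removal of length and GC trends, where 5 to 7 were lower at an unadjusted p under 0.05. It was 5 with library weights, 5 with quantile normalization without control replicate 2, 4 with no fold threshold, and 0 to 5 with 1 library left out. The count called higher was 0, and 1 with library weights and with 75th percentile or quantile scaling without control replicate 2, and 0 to 1 with 1 library left out. The median of the 10 genes, -0.72, was -0.38 with 75th percentile scaling, -1.02 with quantile normalization without control replicate 2, and -0.95 to -0.59 with 1 library left out. In the related lists 2 genes were called higher and 19 lower. These counts were 2 and 7 with 75th percentile scaling, 2 and 10 with median ratio scaling, 2 and 9 with quantile normalization or no filter, 1 and 6 with a pseudocount of 5, and 0 and 9 with length and GC trends removed. They were 5 and 56 with library weights or without control replicate 2, and 0 and 0 with the replicate block or with any other library left out. With control replicate 2 left out they were 7 and 35 with length and GC trends removed, 11 and 30 with 75th percentile scaling and 7 and 46 with quantile normalization. Ddit4 reversed to -0.09 with library weights, -0.10 with length and GC trends removed (with or without the replicate block) and without control replicate 2, and -0.52 with both of the last 2. It lay between -0.10 and 0.40 with 1 library left out. Psph reversed to 0.04 with length and GC trends removed (with or without the replicate block), 0.16 when control replicate 2 was also left out, and 0.04 and 0.06 with 75th percentile and quantile scaling without that library.

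Deviations of same-numbered libraries correlated at -0.057, -0.05 and 0.006. Control replicate 2 dominated the deviations of the controls, so these values cannot decide whether the numbers pair the libraries. The fit with the replicate block called 0 genes, 0 of the 10 among them, with or without length and GC correction. At an unadjusted p under 0.05 by limma it held 4791 and 4295 genes, 7 of the 10 in each. Depth of 47 reads limits Ddit4 in control replicate 2.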
